A study of Mus musculus with 4 samples.

Results

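Genes of autophagy, ER-phagy and the lysosome were followed across the cell classes of the mouse forebrain. The 42 genes were chosen by symbol for their roles. No measured value enters that rule, although earlier results of these data were known when it was written, and every symbol was found once among the 32286 features counted. They fall into 9 roles, from initiation of the autophagosome to the lysosome itself. Nuclei came from cortex and hippocampus of mice at 5 weeks of age, and each of the 4 libraries held 1 mouse. Both genotypes carried floxed *Sel1L* alleles, which encode the adaptor of the HRD1 ubiquitin ligase in ER-associated degradation (ERAD). The 2 controls are labelled *Sel1L* fl/fl, and the 2 other mice, labelled *Sel1L* SynCre, carried in addition a Cre recombinase driven by the neuronal Synapsin I promoter, which is active in a subset of neurons. The comparison asks which of these genes differ in RNA when neurons lose SEL1L.

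Autophagy delivers cytoplasm to the lysosome in a double membrane. The ULK kinase complex starts it, a PI3-kinase complex marks the membrane, ATG9 and ATG2 supply lipid, and a conjugation machinery attaches proteins of the LC3 and GABARAP family to the growing membrane, where cargo receptors bind them. In ER-phagy the cargo is the endoplasmic reticulum, tethered by receptors such as RETREG1 and TEX264, and it offers proteins that ERAD cannot remove another way out of the ER. TFEB, TFE3 and MITF are transcription factors that bind the CLEAR element, an extended E-box, near the start of many lysosomal genes. ATF4 and CHOP, which act downstream of the ER stress sensor PERK, are known to raise several autophagy genes when amino acids are short.

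Promoter sequences of 35 of the 42 genes were found in RefSeq (GRCm38.p6), in 45 windows of 250 bases before and 50 bases after a transcript's start. Those of *Rb1cc1*, *Becn1*, *Pik3c3*, *Atg12*, *Atg16l1*, *Map1lc3a* and *Ctsb* were not analysed here. Motifs were searched on both strands: the E-box CACGTG, the middle of the CLEAR element TCACGTGA, which contains the E-box, the core TGATGNAA bound by ATF4 with its CEBP partners, and TGACGTGG, bound by XBP1 and ATF6. The windows below are those of *Atg13*, the gene called between genotypes in more than one neuron type, of the only members with TCACGTGA (*Ctsd* and *Atg3*), and of *Atp6v0d1*, a lysosomal gene outside the 42 that was called in 2 neuron types. Capitals mark TCACGTGA, and each sequence reads 5′ to 3′ on the strand of its gene.
Atg13, chr2:91710543-91710842, minus strand: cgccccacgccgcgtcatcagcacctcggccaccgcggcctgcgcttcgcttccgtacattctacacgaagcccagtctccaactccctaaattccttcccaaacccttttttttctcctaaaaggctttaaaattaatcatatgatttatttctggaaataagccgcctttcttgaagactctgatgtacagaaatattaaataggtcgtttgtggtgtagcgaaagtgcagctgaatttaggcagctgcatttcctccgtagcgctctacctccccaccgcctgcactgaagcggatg
Ctsd, chr7:142387778-142388077, minus strand: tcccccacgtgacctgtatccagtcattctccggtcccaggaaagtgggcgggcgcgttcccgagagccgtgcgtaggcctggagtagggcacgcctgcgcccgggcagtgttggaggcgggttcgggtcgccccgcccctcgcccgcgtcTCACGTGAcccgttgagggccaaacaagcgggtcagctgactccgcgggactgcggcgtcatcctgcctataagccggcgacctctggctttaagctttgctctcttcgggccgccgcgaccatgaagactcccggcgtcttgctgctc
Atg3, chr16:45158579-45158878, plus strand: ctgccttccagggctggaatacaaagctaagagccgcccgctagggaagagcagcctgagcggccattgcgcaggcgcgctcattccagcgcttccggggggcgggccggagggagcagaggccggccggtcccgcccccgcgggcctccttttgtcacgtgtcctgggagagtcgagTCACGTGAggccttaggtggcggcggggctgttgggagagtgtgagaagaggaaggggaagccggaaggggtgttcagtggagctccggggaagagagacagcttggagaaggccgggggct
Atp6v0d1, chr8:105566015-105566314, minus strand: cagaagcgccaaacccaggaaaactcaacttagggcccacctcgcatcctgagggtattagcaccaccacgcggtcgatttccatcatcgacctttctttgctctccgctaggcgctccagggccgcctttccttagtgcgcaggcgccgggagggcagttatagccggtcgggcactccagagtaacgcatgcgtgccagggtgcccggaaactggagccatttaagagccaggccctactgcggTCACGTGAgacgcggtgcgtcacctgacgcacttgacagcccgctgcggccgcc
The element began 99 bases before the start of *Ctsd*, 72 bases before that of *Atg3* and 4 bases before that of *Atp6v0d1*, whose window also held TGATGNAA from base 80. In the window of *Atg13* none of these motifs was found. Over all 45 windows of the 42 genes, 7 (15.56%) held CACGTG, against 7.15% of the 32851 promoter windows of all genes, and 2 (4.444%) held TCACGTGA, against 0.9741%. TGATGNAA and TGACGTGG were in 0 of the 45 windows, against 3.969% and 0.6758% of all. Among 31 windows of other lysosomal genes, listed as a TFEB network, 13 (41.94%) held CACGTG and 7 (22.58%) held TCACGTGA. A list of TFEB targets is not independent of the element that TFEB binds, so these shares do not stand for lysosomal genes in general. These counts describe letters in a fixed window and were not tested.

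The libraries labelled *Sel1L* fl/fl kept 11116 and 7864 nuclei and those labelled *Sel1L* SynCre 7538 and 6805, with medians of 7244.5 to 8397 UMIs (unique molecular identifiers, 1 per RNA molecule counted) in a nucleus. Pairs of libraries shared 10 to 34 barcodes. *Sel1l* itself was at 97.1 and 90.0 CPM (UMIs of a gene for every 1000000 UMIs of a library) in the fl/fl libraries and at 155 and 128 CPM in the SynCre libraries. The chemistry reads the 3′ end, so these counts do not show which exons an RNA holds, and the level was higher, not lower, with the label SynCre. UMIs of the Cre RNA numbered 236 and 221 in the SynCre libraries, but 409 were counted in fl/fl replicate 1 as labelled, and 0 in replicate 2, which allows up to 0.0437 CPM (3 UMIs, counting error only). Cre therefore did not follow the labels, and each call is given also without fl/fl replicate 1 where it was lost there. A fit without 1 library sets 1 mouse against 2. A call can be lost there through smaller numbers alone, which cannot be told apart from dependence on that library. By *Xist* and the Y-linked *Ddx3y*, replicate 1 of each genotype was male and replicate 2 female, so a block on replicate number is also a block on sex. A fit without 1 library leaves 1 genotype with only 1 sex, so sex is unbalanced there too. Clusters were named from marker genes into 11 neuron types and 5 other classes, written as "-like". With 2 mice against 2, a two-sided exact permutation test cannot give a p under 0.333, so calls rest on edgeR's quasi-likelihood test over all genes of a class, at a Benjamini-Hochberg adjusted p of 0.05.

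Of the 42 genes, *Atg13* and *Mitf* were called between genotypes in a neuron type, and the other 40 in none. *Atg13*, the subunit that links the ULK kinase to its scaffold, was higher in SynCre libraries in DG-like granule neurons and in *Sst*-like interneurons. *Mitf* was higher in *Sst*-like interneurons. These are 3 calls in 451 pairs of gene and neuron type, and 35 pairs had an unadjusted p under 0.05. Of all genes tested, 6.52% (*Vip*-like) to 21.6% (*Sst*-like) had such a p in a neuron type. Fold changes were above 0 in 261 of the 451 pairs (57.9%), against 49.5% to 51.0% of all genes in a type. In 422 pairs the 95% interval of the fold change lay within a 2-fold change either way. By contrast *Hspa5*, the ER chaperone BiP, was 2.14 higher on the log2 scale in DG-like and 3.23 higher in *Sst*-like neurons of the same libraries (adjusted p = 2.09e-06 and 2.88e-07 by edgeR). In the other classes 2 of 209 pairs were called, both in OPC-like cells, with 14 under an unadjusted p of 0.05. Of all genes, 5.90% (endothelial-like) to 18.1% (OPC-like) had such a p there. *Hspa5* was also called outside neurons. It was higher by 1.86 in OPC-like (adjusted p = 1.42e-09 by edgeR) and by 1.97 in oligodendrocyte-like cells (adjusted p = 0.0214). It was not called in astrocyte-like (0.82), endothelial-like (1.24) or microglia- or macrophage-like cells (0.34).

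The calls are read beside the share of all tested genes called in the same class, which was 8.77% in *Sst*-like (1036 genes), 3.87% in *Pvalb*-like (476 genes) and 3.47% in DG-like granule neurons (454 genes), and 2 of 41, 0 of 42 and 1 of 40 members were called there. Whether members were called less often than other genes was not tested. In L4/5 IT-like, L6 CT-like and L5/6 IT-like neurons 1.65%, 0.894% and 0.914% of genes were called, with 0 members. The shares were 0.459% in *Lamp5*-like, 0.157% in L2/3 IT-like, 0.0328% in CA3-like, 0.0268% in *Vip*-like and 0.00777% in CA1-like neurons, again with 0 members. In these 9 types without a called member, between 0 and 6 members had an unadjusted p under 0.05, against 6.52% to 16.8% of all genes. DESeq2 called no member there, but it tested only 5 members in *Lamp5*-like and 38 in CA3-like neurons. In OPC-like cells 8.6% of genes and 2 of 42 members were called. Astrocyte-like (1.01%), oligodendrocyte-like (0.846%), microglia- or macrophage-like (0.084%) and endothelial-like cells (0.0%) had 0 members called. *Tfeb* was too low to be tested in 8 neuron types, *Optn* in DG-like neurons, *Atg101* and *Wipi1* in *Lamp5*-like neurons and *Tfe3* in endothelial-like cells.

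The first role is initiation. In DG-like neurons *Atg13* (ENSMUSG00000027244, chr2:91674618-91710576 in GRCm38, minus strand) was at 39.1 and 44.6 CPM in fl/fl and at 72.9 and 63.5 CPM in SynCre libraries, where CPM is scaled by edgeR's TMM factors. The genotypes did not overlap, and both SynCre values stood above both fl/fl values. The fold change was 0.71 on the log2 scale (SE 0.132, 95% interval 0.43 to 1.00, adjusted p = 0.00917 by edgeR), from 953 UMIs. Without fl/fl replicate 1 it was 0.62, with an adjusted p of 0.0934. After every neuron pseudobulk (the summed UMIs of a class in a library) was thinned to the total of the smallest it was 0.40, with an adjusted p of 0.443.

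In *Sst*-like interneurons *Atg13* was at 51.2 and 63.6 CPM in fl/fl and at 87.3 and 91.6 CPM in SynCre libraries. Again the SynCre libraries were both higher, by 0.65 on the log2 scale (SE 0.165, 95% interval 0.31 to 1.00, adjusted p = 0.0169 by edgeR). The adjusted p was 0.261 without fl/fl replicate 1, 0.0536 after thinning, 0.0654 with doublets kept and 0.273 with DESeq2. *Pvalb*-like interneurons had 65.6 and 59.1 CPM in fl/fl and 92.6 and 90.9 CPM in SynCre libraries, a difference of 0.55 that missed the threshold (adjusted p = 0.0595 by edgeR) but passed it with replicate number, and so sex, as a block (0.56, adjusted p = 0.0365) and with no filter on low counts (adjusted p = 0.0481). In *Lamp5*-like, L6 CT-like and OPC-like cells the fold changes were 0.52, 0.35 and 0.50, with adjusted p of 0.30, 0.287 and 0.118 by edgeR. In CA3-like and L4/5 IT-like neurons the fold change of *Atg13* was at most 0.0974 and 0.107, the highest of any initiation gene there. *Hspa5* was higher in these types by 1.42 and 1.56 (adjusted p = 0.0301 and 0.00757 by edgeR). CA1-like neurons had 44.0 and 42.6 CPM in fl/fl and 41.9 and 44.1 CPM in SynCre libraries, so the libraries overlapped, and the fold change was -0.01 (95% interval -0.32 to 0.29). No other counted gene overlaps *Atg13* in the annotation.

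The difference in effect between neuron types was tested as an interaction, with library as a block. *Atg13* differed more between genotypes in DG-like than in CA1-like neurons by 0.74 on the log2 scale (SE 0.169, adjusted p = 0.0067 by edgeR). For *Sst*-like neurons the difference was 0.67 (SE 0.193, 95% interval 0.27 to 1.07) and just missed the threshold (adjusted p = 0.0584 by edgeR), and for *Pvalb*-like neurons it was 0.57 (adjusted p = 0.0955 by edgeR). Of all genes tested, 2.7% were called for DG, 3.17% for *Sst* and 2.2% for *Pvalb*, against 1, 1 and 0 of the 42 members. The call of *Atg13* in DG-like neurons was lost without fl/fl replicate 1 (0.57), without SynCre replicate 1 (0.61), with *Vip*-like neurons in place of CA1-like (0.50) and with DESeq2.

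**Figure D1:**
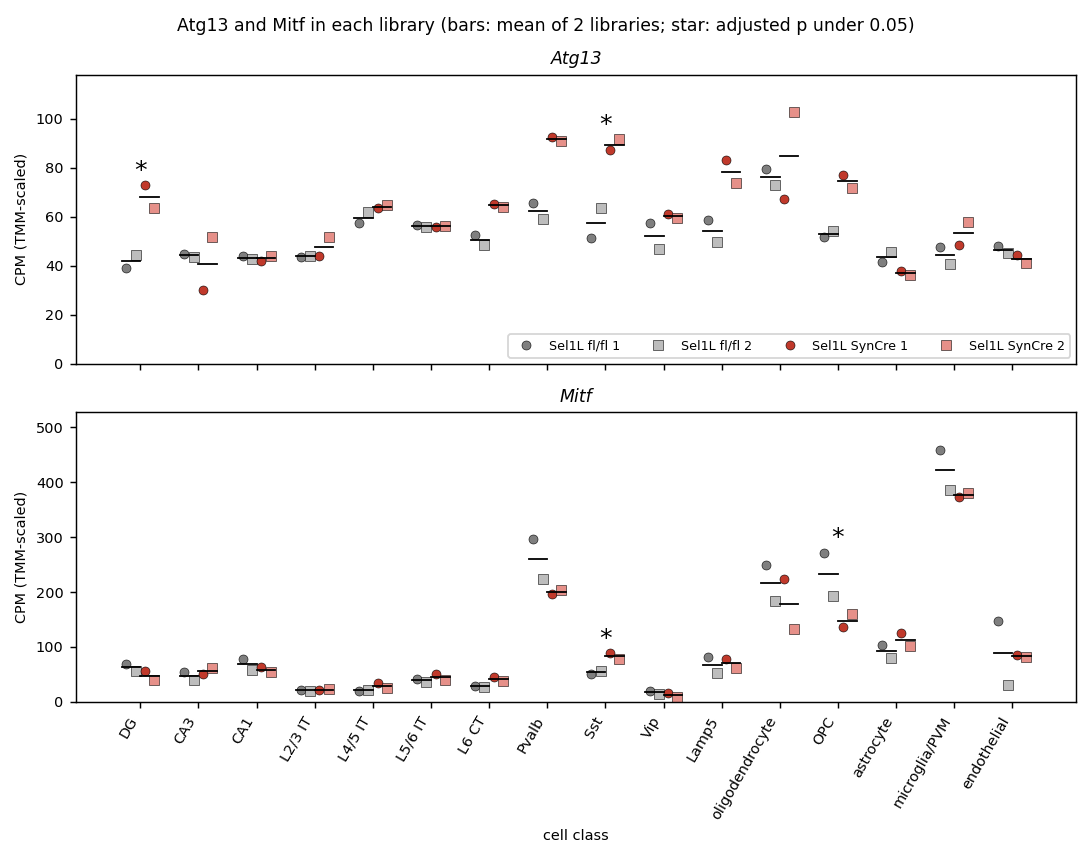
CPM (TMM-scaled) of *Atg13* (upper panel) and *Mitf* (lower panel) in each library (points) and the mean of 2 libraries (bars) in 16 cell classes, with stars at calls. *Atg13* stands higher in SynCre libraries in DG and Sst and level in CA1, and *Mitf* is highest in microglia, at 373 to 440 CPM before TMM scaling in the fl/fl libraries.

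The other members of the ULK complex were not called. *Ulk1*, the kinase, was the member with the lowest fold change in *Sst*-like (-0.58, adjusted p = 0.252 by edgeR) and CA1-like neurons (-0.47). *Atg101*, which stabilises ATG13, was among the 5 members with the largest fold change in *Pvalb*-like neurons. It had 3.22 and 7.54 CPM in fl/fl and 4.94 and 8.77 CPM in SynCre libraries, which overlapped (log2 fold change 0.42, SE 0.484, adjusted p = 0.726 by edgeR), and its direction turned without fl/fl replicate 1 and without SynCre replicate 2. Of 54 pairs of initiation gene and neuron type, 29 had a fold change above 0, with a median of 0.01, and the medians of all genes in a type lay between -0.004 and 0.009.

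Cre is active in a subset of neurons, so nuclei of the SynCre libraries were also split by UMIs of 10 ER stress genes, none of them a member. Each nucleus was thinned to 4000 UMIs, and those with at least 1 such UMI were set against those with none. In DG-like neurons 52.0% and 35.5% of nuclei in the SynCre libraries were marker-positive, against 3.58% and 2.41% in the fl/fl libraries. In CA1-like neurons the shares were 13.7% and 11.6% against 12.8% and 12.2%. *Sst*-like neurons had 85.2% and 70.2% against 24.8% and 21.8%, and *Pvalb*-like 87.9% and 73.8% against 31.8% and 30.6%. *Lamp5*-like neurons had 50% and 41.9% against 14.7% and 10.8%, and L4/5 IT-like 19.5% and 18.1% against 4.58% and 5.77%. L6 CT-like neurons had 15.7% and 14.2% against 5.44% and 5.97%, and L5/6 IT-like 11.5% and 10.2% against 5.38% and 5.75%. Positive nuclei therefore cannot all be taken as nuclei that lost SEL1L. The median UMIs of DG-like nuclei before thinning were 7206 and 7154.5 in positive and 7672.5 and 7650.5 in negative SynCre nuclei. Of the positive DG-like nuclei in the SynCre libraries, 140 of 232 and 105 of 140 rested on 1 marker UMI. The paper reports a nearly complete loss of SEL1L in the dentate gyrus and in CA3, and SEL1L mostly kept in CA1. Negative DG-like nuclei therefore cannot be taken as nuclei that kept SEL1L.

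Within the SynCre libraries *Atg13* in DG-like neurons was at 80.8 and 64.3 CPM in marker-positive and at 81.8 and 67.9 CPM in marker-negative nuclei. The kinds were nearly level in each mouse, and the difference was -0.05 on the log2 scale (SE 0.184, 95% interval -0.43 to 0.34, adjusted p = 0.995 by edgeR). Against all fl/fl nuclei, *Atg13* was higher in marker-positive nuclei by 0.85 (SE 0.209, adjusted p = 0.0171 by edgeR, with 3.31% of all genes called) and in marker-negative nuclei by 0.85 (SE 0.194, adjusted p = 0.00663, with 2.3% called). No other member was called in either kind of DG-like nuclei. The difference between both kinds has an interval from -0.43 to 0.34, so a small difference could not be seen at this depth.

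No member was called between marker-positive and marker-negative nuclei in DG-like, *Lamp5*-like, L6 CT-like, L4/5 IT-like or L5/6 IT-like neurons by edgeR, against 0.0319%, 2.93%, 0.573%, 4.33% and 1.12% of all genes, and 0, 2, 1, 4 and 0 members had an unadjusted p under 0.05. *Atg13* itself was at 119 and 106 CPM in positive and at 72.0 and 52.1 CPM in negative *Lamp5*-like nuclei, higher in positive nuclei of both mice by 0.80 from 82 UMIs (95% interval 0.13 to 1.47), but not past the threshold (adjusted p = 0.254 by edgeR). In DG-like neurons the largest differences were those of *Wipi1* (0.82, 54 UMIs), *Tex264* (-0.67, 79 UMIs) and *Atg101* (-0.45, 42 UMIs). *Sst*-like and *Pvalb*-like neurons had 24 to 55 negative nuclei in a SynCre library, which in each type fell under the 50 required in 1 library or both, so they were compared with at least 20, a limit chosen after the data were seen. There 0.591% and 0.0978% of genes and 0 members were called, with 1 member in each under an unadjusted p of 0.05. In *Sst*-like neurons the largest differences were those of *Map1lc3a* (-0.97, 43 UMIs), *Becn1* (0.91, 92 UMIs) and *Lamp2* (0.79, 108 UMIs), and *Atg13* differed by 0.51 (95% interval -0.16 to 1.18, adjusted p = 0.821 by edgeR).

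Nucleation genes and genes of membrane supply were called in no neuron type. *Pik3r4*, the regulatory subunit of the PI3-kinase VPS34, had the largest fold change of the 42 in all neuron-like nuclei together. It was at 17.3 and 15.4 CPM in fl/fl and at 12.6 and 13.3 CPM in SynCre libraries, lower in both, with a fold change of -0.34 (SE 0.107, adjusted p = 0.270 by edgeR). *Wipi1*, which binds the lipid that VPS34 makes, had 4.42 and 5.43 CPM in fl/fl and 10.4 and 9.70 CPM in SynCre libraries in *Sst*-like neurons. That is a fold change of 1.05 from 57 UMIs, with a wide error (SE 0.407, 95% interval 0.19 to 1.90, adjusted p = 0.127 by edgeR). In *Pvalb*-like neurons *Wipi1* was at 7.02 and 6.28 CPM and at 11.9 and 10.4 CPM (0.73, adjusted p = 0.276 by edgeR), but at -0.38 after thinning.

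Conjugation genes were not called either. *Atg12*, the ubiquitin-like protein joined to ATG5, was at 26.0 and 31.4 CPM in fl/fl and at 36.2 and 38.6 CPM in SynCre libraries in DG-like neurons, both higher (0.39, SE 0.160, adjusted p = 0.237 by edgeR). In *Sst*-like neurons it was at 25.8 and 40.2 CPM and at 57.1 and 40.6 CPM, where the lower SynCre and the higher fl/fl library were nearly equal (0.61, SE 0.230, adjusted p = 0.117 by edgeR). *Atg16l1*, the scaffold that places the conjugate on the membrane, was lower in SynCre libraries of DG-like neurons, at 101 and 89.1 CPM against 76.3 and 74.5 CPM (-0.34, SE 0.120, adjusted p = 0.163 by edgeR). So the partners of one complex stood in opposite directions in the same cells, neither past the threshold. In *Sst*-like neurons *Atg12* passed it without SynCre replicate 2 (0.83, adjusted p = 0.0117 by edgeR) and with doublets kept (0.66, adjusted p = 0.0445).

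The LC3 and GABARAP genes encode the proteins that coat the autophagosome. None was called in a neuron type by edgeR or DESeq2, and DESeq2 tested only 5 of the 42 members in *Lamp5*-like neurons. An unadjusted p under 0.05 was found in 10 of 55 pairs, against 6.52% to 21.6% of all genes by type. Fold changes of the 5 LC3 and GABARAP genes were above 0 in 50 of 55 pairs, with a median of 0.26 (range -0.34 to 0.63). In 7 of 11 neuron types all 5 were above 0, and of all genes 49.5% to 51.0% were above 0 in a type. Without fl/fl replicate 1 the count was 44 of 55, and with DESeq2's size factors it stayed 50 of 55. The types share the same 4 libraries, so the pairs are not independent. Outside neurons all 5 genes were above 0 in astrocyte-like (median 0.24) and endothelial-like cells (0.64). In oligodendrocyte-like cells 4 were above 0 (0.19), in OPC-like cells 3 (0.02) and in microglia- or macrophage-like cells 2 (-0.04). The median of the 5 genes was 0.48 in CA1-like neurons and 0.20 in DG-like neurons. *Sel1l* was at 122 and 109 CPM in fl/fl and 117 and 99.7 CPM in SynCre libraries in CA1-like neurons and at 83.6 and 73.7 CPM and 233 and 188 CPM in DG-like neurons.

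In all neuron-like nuclei together, *Gabarapl2* was at 34.1 and 36.8 CPM in fl/fl and at 42.2 and 42.8 CPM in SynCre libraries (0.26, SE 0.088, adjusted p = 0.290 by edgeR). *Map1lc3b*, the LC3 most used as a marker of autophagosomes, was at 19.7 and 17.9 CPM and at 21.0 and 25.8 CPM (0.32, adjusted p = 0.347 by edgeR). *Gabarap* was at 17.8 and 18.6 CPM and at 21.0 and 23.3 CPM (0.29, adjusted p = 0.308 by edgeR). In these 3 genes both SynCre libraries stood above both fl/fl libraries, while *Map1lc3a* overlapped (0.05, adjusted p = 0.907 by edgeR) and turned below 0 without fl/fl replicate 1 or without SynCre replicate 2. *Atg101* was the fifth gene by size in the pool, at 5.84 and 6.82 CPM and at 6.94 and 8.04 CPM (0.25, adjusted p = 0.552 by edgeR). In *Pvalb*-like neurons *Gabarap* was at 10.8 and 20.1 CPM and at 19.7 and 21.9 CPM, which overlapped (0.47, adjusted p = 0.465 by edgeR, and 0.0480 without fl/fl replicate 2, at 0.93).

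The pool of neurons gave the most UMIs, 818 to 134552 for a member, and so the narrowest intervals. None of the 42 was called there by edgeR or DESeq2, against 0.143% of all genes by edgeR. An unadjusted p under 0.05 was found in 4 (9.52%), against 12.7% of all genes. Every one of the 42 intervals lay within a 2-fold change and 39 within a 1.5-fold change. Neuron types made up different shares of the pool in different libraries, so a change of makeup and a change of level cannot be told apart in it.

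Counts of genes whose libraries did not overlap describe the same pattern without a model. In *Sst*-like neurons 19 of 41 members were higher in both SynCre libraries and 5 lower in both, against 26.7% and 24.3% of all genes tested. In DG-like neurons 15 of 40 were higher and 6 lower, against 23.0% and 23.1%. *Pvalb*-like neurons had 8 and 9 of 42, against 23.7% and 23.4%, OPC-like cells 10 and 7, against 23.3% and 22.8%, and the pool of neurons 13 and 8, against 22.7% and 22.3%. Whether more members were higher than among all genes was not tested.

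A list of 12 members is known to be linked to ATF4 or CHOP when amino acids are short. Its fold changes were above 0 in 91 of 132 pairs of gene and neuron type, with a median of 0.11. There were 0 calls by edgeR and by DESeq2, which tested only 5 of the 42 members in *Lamp5*-like neurons. An unadjusted p under 0.05 was found in 16 pairs, against 6.52% to 21.6% of all genes by type. Of the list 11 of 12 were above 0 in *Sst*-like neurons, *Atg16l1* being the exception. In CA1-like neurons 6 of 12 were. Without fl/fl replicate 1 the count over all types was 82 of 132.

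Cargo receptors and ER-phagy receptors were called in no class. Among the 6 ER-phagy receptors, fold changes in neuron types ran from -0.34 to 0.53 with a median of 0.07, and 38 of 66 were above 0. *Tex264* in *Sst*-like neurons was the highest of them, at 0.53 (adjusted p = 0.283 by edgeR). *Sqstm1*, the receptor p62, differed by 0.00 in DG-like neurons (SE 0.133) and by 0.29 in *Sst*-like neurons (SE 0.153, adjusted p = 0.293 by edgeR).

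The TFEB family followed no single direction. In *Sst*-like interneurons *Mitf* (ENSMUSG00000035158, chr6:97807052-98021349 in GRCm38, plus strand) was at 51.2 and 57.1 CPM in fl/fl and at 88.4 and 78.8 CPM in SynCre libraries. Both SynCre libraries were higher, by 0.63 on the log2 scale (SE 0.164, 95% interval 0.29 to 0.98, adjusted p = 0.0189 by edgeR). The adjusted p was 0.221 without fl/fl replicate 1, 0.0617 without fl/fl replicate 2, 0.168 without SynCre replicate 1 and 0.318 with DESeq2. The signed fold change of *Mitf* was higher in *Sst*-like than in CA1-like neurons by 0.87 (SE 0.20, adjusted p = 0.0138 by edgeR). This call was lost without fl/fl replicate 1 (0.55), with *Vip*-like neurons as reference (1.08, adjusted p = 0.0897 by edgeR) and with DESeq2. In CA1-like neurons *Mitf* was at 78.1 and 58.2 CPM against 63.4 and 53.7 CPM, which overlapped. Each SynCre value there lay below the fl/fl value of the same replicate number.

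In DG-like neurons *Mitf* stood the other way, at 69.4 and 56.6 CPM in fl/fl and 55.3 and 39.7 CPM in SynCre libraries (-0.41, SE 0.161, adjusted p = 0.217 by edgeR). The same was so in *Pvalb*-like neurons, with 297 and 224 CPM against 197 and 204 CPM (-0.38, adjusted p = 0.216 by edgeR). Each passed the threshold without 1 library, DG-like without SynCre replicate 1 (-0.68, adjusted p = 0.0214 by edgeR) and *Pvalb*-like without fl/fl replicate 2 (-0.58, adjusted p = 0.00585). *Tfe3* in *Sst*-like neurons was at 20.6 and 14.1 CPM against 26.4 and 29.7 CPM (0.65, SE 0.254, adjusted p = 0.129 by edgeR). *Tfeb* in *Pvalb*-like neurons was at 18.7 and 11.7 CPM against 13.2 and 9.17 CPM, which overlapped (-0.48, adjusted p = 0.495 by edgeR).

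Some marker lists of other cells differed between the genotypes in the neuron classes above. In *Sst*-like neurons the 7 CA1 markers, all detected, summed to 7230 and 5008 CPM in fl/fl and to 4137 and 4122 CPM in SynCre libraries. In DG-like neurons the same list summed to 231 and 225 CPM against 124 and 116 CPM, the 7 astrocyte markers, all detected, to 1190 and 1160 CPM against 901 and 904 CPM, and 6 of 7 oligodendrocyte markers to 360 and 326 CPM against 257 and 247 CPM. Their part in the results was not tested. The defining lists were lower in SynCre libraries too, with DG markers in DG-like neurons at 1951 and 2069 CPM against 1755 and 1820 CPM and *Sst* markers in *Sst*-like neurons at 1314 and 1225 CPM against 973 and 1133 CPM. In CA1-like neurons, the reference of the interactions, the CA1 markers summed to 7058 and 5655 CPM in fl/fl and to 5369 and 4255 CPM in SynCre libraries. This list was as high in fl/fl *Pvalb*-like (7077 and 6732 CPM) and *Lamp5*-like neurons (8054 and 6159 CPM), so it does not single out CA1 cells. Some lists went the other way in *Sst*-like neurons. Choroid plexus markers were at 33.7 and 16.5 against 66.6 and 47.8 CPM, and L6b markers at 105 and 133 against 158 and 168 CPM. The part of these lists was not tested either.

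OPC-like cells held the only calls of a member outside neurons, both lower in SynCre libraries. *Sel1l* (1.48, adjusted p = 1.99e-06 by edgeR) and *Hspa5* (1.86, adjusted p = 1.42e-09) were higher in this class. Whether that bears on the calls was not tested. *Tfeb* (ENSMUSG00000023990, chr17:47737030-47792419 in GRCm38, plus strand) was at 52.0 and 31.6 CPM in fl/fl and at 18.6 and 23.2 CPM in SynCre libraries (-1.02, SE 0.284, adjusted p = 0.0146 by edgeR). *Mitf* was at 271 and 193 CPM against 137 and 160 CPM (-0.65, SE 0.171, adjusted p = 0.00903 by edgeR). Neither held by edgeR without fl/fl replicate 1, with values of -0.60 (adjusted p = 0.488) and -0.39 (adjusted p = 0.331), or without SynCre replicate 1, with -0.88 (adjusted p = 0.128) and -0.55 (adjusted p = 0.213), and DESeq2 called neither.

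The OPC-like class, as clustered after integration, also held nuclei that clustering without integration named immature oligodendrocyte-like. They were 21.1% and 14.7% of the class in fl/fl and 1.76% and 1.21% in SynCre libraries. The 7 oligodendrocyte markers, all detected, summed to 3816 and 2751 CPM in the class in fl/fl libraries and to 112 and 173 CPM in SynCre libraries. Of the *Tfeb* UMIs, 87 of 118 and 41 of 55 in fl/fl libraries came from these nuclei, and 1 of 21 and 0 of 24 in SynCre libraries. Of the *Mitf* UMIs it was 418 of 615, 165 of 335, 11 of 154 and 5 of 165. With these nuclei left out, a step added after the data were seen, *Tfeb* stood at 0.50 (adjusted p = 0.635 by edgeR) and *Mitf* at 0.25 (adjusted p = 0.620), above 0, and 0 of 42 members and 3.25% of genes were called, with 2 members under an unadjusted p of 0.05.

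**Figure D2:**
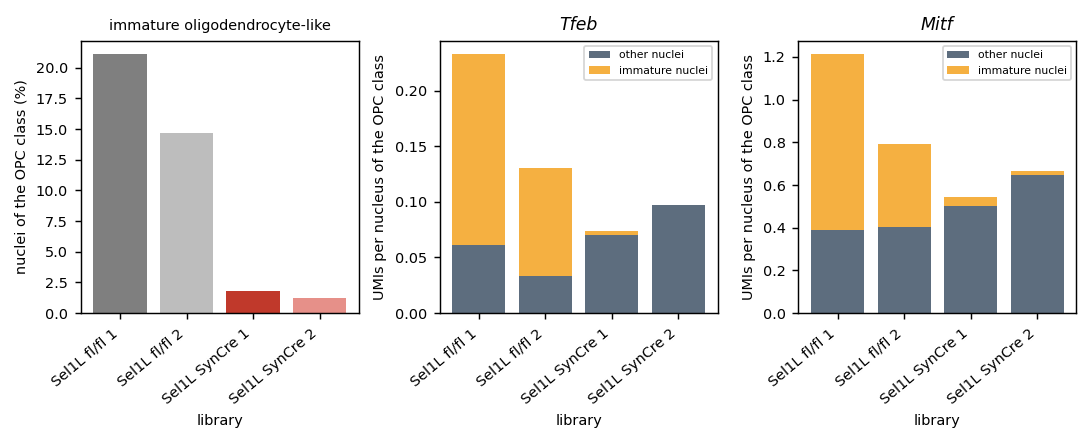
Left, share of OPC-like nuclei in each library (bars) that clustering without integration named immature oligodendrocyte-like, in percent. Middle and right, UMIs of *Tfeb* and *Mitf* per nucleus of the class, stacked by immature nuclei (orange) and other nuclei (grey), with most of the *Tfeb* UMIs of the fl/fl libraries in orange (87 of 118 and 41 of 55).

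The 4 lysosomal members were called in no class. *Ctsd*, the protease cathepsin D, was at 9.37 and 7.39 CPM in fl/fl and at 7.34 and 5.51 CPM in SynCre libraries in DG-like neurons (-0.39, SE 0.301, adjusted p = 0.583 by edgeR). The libraries only just did not overlap. Over the 4 genes, 20 of 44 fold changes in neuron types were above 0, with a median of -0.03.

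Other genes of the pathway, listed beside the 42, gave 27 calls in 1600 pairs of gene and class (the pool of neurons included), 25 higher and 2 lower in SynCre libraries, and 16 with DESeq2. That is 1.69% of the pairs, near the 1.76% called among all 215997 pairs of gene and class (0.959% higher and 0.796% lower). Of these calls 6 held without each library in turn, *Trib3* and *Sesn2* in *Sst*-like and OPC-like cells and *Trib3* in *Pvalb*-like and L4/5 IT-like cells, and 21 were lost without at least 1, among them 13 without fl/fl replicate 1. In the list of other ER-phagy genes, 7 of 204 pairs (3.43%) were called, all higher and all in *Sst*-like, OPC-like, DG-like and *Pvalb*-like cells, the classes with the highest shares of all genes called. Among them were genes of UFM1 modification, which marks ribosomes at the ER. *Cdk5rap3* was called in *Sst*-like (1.20) and DG-like neurons (0.91), and *Ufl1*, the ligase, in *Sst*-like neurons (0.63). Without fl/fl replicate 1 the calls of *Cdk5rap3* in DG-like neurons (adjusted p = 0.0883 by edgeR) and of *Ufl1* (adjusted p = 0.201) were lost.

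Of 24 other core autophagy genes, 2 were called, each once (0.51% of pairs), both in *Sst*-like neurons, and both calls were lost without SynCre replicate 1 (0.46 and 0.76) and without either fl/fl replicate. *Vmp1*, an ER scramblase needed to build the autophagosome, was at 108 and 128 CPM against 271 and 162 CPM (0.88, adjusted p = 0.00448 by edgeR, 0.0151 with DESeq2). *Plekhm1*, an adaptor of lysosome fusion, was at 17.3 and 15.2 CPM against 41.7 and 27.9 CPM (1.09, adjusted p = 0.00900 by edgeR, 0.222 with DESeq2).

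Other lysosomal genes gave 8 calls in 539 pairs (1.48%), 6 higher and 2 lower. *Gla*, alpha-galactosidase, was at 3.68 and 3.80 CPM against 9.34 and 12.1 CPM in *Sst*-like neurons (log2 fold change 1.5, adjusted p = 0.0336 by edgeR, 0.557 with DESeq2). *Scpep1*, a serine carboxypeptidase, was higher in *Pvalb*-like (1.07), *Sst*-like (0.73) and OPC-like cells (0.98). *Atp6v0d1*, the subunit of the proton pump whose promoter is shown above, was at 45.7 and 41.3 CPM against 77.4 and 61.2 CPM in *Sst*-like neurons (0.67, adjusted p = 0.0243 by edgeR) and was called in L4/5 IT-like neurons too (0.61, adjusted p = 0.0462). *Scarb2* (-0.99) and *Ctsl* (-0.94) were lower in OPC-like cells. The makeup of that class differed between genotypes. Its part in the calls there, lower or higher, *Scpep1*, *Sesn2* and *Trib3* included, was not tested. Without fl/fl replicate 1 the calls in *Sst*-like neurons of *Gla* (adjusted p = 0.253 by edgeR), *Atp6v0d1* (0.147) and *Scpep1* (0.358) were lost, as were those of *Scpep1* in *Pvalb*-like (0.106) and OPC-like cells (0.0683) and of *Scarb2* (0.0565).

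In the control of mTORC1 and AMPK, 10 of 465 pairs (2.15%) were called, all higher, in 4 genes. *Trib3*, a pseudokinase induced by ATF4 and CHOP, is also one of the 10 ER stress genes used for the split. It was at 0.737 and 2.17 CPM against 30.8 and 14.6 CPM in *Sst*-like neurons (adjusted p = 6.22e-05 by edgeR) and was called in *Pvalb*-like, L4/5 IT-like and OPC-like cells too. *Ddit4*, an inhibitor of mTORC1, was at 2.55 and 3.55 CPM against 34.9 and 87.7 CPM in microglia- or macrophage-like cells (4.28, adjusted p = 0.0319 by edgeR, 0.342 without SynCre replicate 2). *Sesn2*, a leucine sensor that restrains mTORC1, was at 3.68 and 5.43 CPM against 22.0 and 23.0 CPM in *Sst*-like neurons (2.33, adjusted p = 0.000244 by edgeR, 0.00641 with DESeq2) and at 2.20 and 2.30 CPM against 36.4 and 20.3 CPM in OPC-like cells (3.62, adjusted p = 1.45e-07 by edgeR). *Rheb*, which activates mTORC1, was higher in L4/5 IT-like (0.70) and L6 CT-like neurons (0.78).

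The 42 genes also differed in level between cell classes, which is given as a description, since the classes were made from the same counts. CPM here are scaled by the UMIs of the class alone, without a correction for gene length. Whether introns were counted is not given in the sources used here. In the fl/fl libraries 16 members were highest in microglia- or macrophage-like cells and 11 in endothelial-like cells, of which fl/fl replicate 2 held only 36 nuclei with 69783 UMIs, and 14 reached at least 3 times their median class. *Ctsd* was at 239 and 217 CPM in microglia- or macrophage-like cells, 20.6 times the median class, and its next class, endothelial-like, had 35.9 and 57.3 CPM. *Retreg1*, the first ER-phagy receptor known, was at 371 and 363 CPM there, against 220 and 196 CPM in oligodendrocyte-like cells and 18.5 and 21.3 CPM in CA1-like neurons. *Mitf* (440 and 373 CPM), *Tfe3* (89.4 and 85.1 CPM) and *Ctsb* (176 and 215 CPM) were highest in the same class. So were *Ulk2* (564 and 596 CPM), *Atg10* (177 and 167 CPM) and *Gabarap* (80.2 and 72.2 CPM). *Lamp1* (113 and 107 CPM) and *Lamp2* (232 and 253 CPM) were highest there too. For *Gabarap*, endothelial-like cells, at 40.1 and 71.7 CPM, came close in 1 fl/fl library. In the SynCre libraries they were higher, at 102 and 78.1 CPM against 70.7 and 71.0 CPM.

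*Tfeb* was highest in oligodendrocyte-like cells, at 85.6 and 83.5 CPM, 28.0 times its median class, and microglia- or macrophage-like cells overlapped them at 85.1 and 70.5 CPM. Among neuron types it was highest in *Pvalb*-like (17.8 and 11.5 CPM) and lowest in L2/3 IT-like neurons (0.591 and 0.220 CPM). *Wipi1* was also highest in oligodendrocyte-like cells, at 126 and 101 CPM, but endothelial-like cells, at 38.0 and 100 CPM, came close in 1 library. *Atg101* was highest in endothelial-like cells at 10.6 and 43.0 CPM, which overlapped the next class and came from 5 and 3 UMIs. Of the members at 3 times their median class, only *Optn*, a receptor for ubiquitinated cargo and mitochondria, was highest in a neuron type. It was at 71.3 and 80.4 CPM in *Pvalb*-like and 57.0 and 61.2 CPM in *Sst*-like interneurons. In DG-like neurons it was at only 0.719 and 0.454 CPM. In the SynCre libraries *Pvalb*-like (77.4 and 68.2 CPM) and *Sst*-like neurons (72.7 and 47.2 CPM) overlapped. *Mitf* and *Tfeb*, highest outside neurons, also exceeded 3 times their median class in fl/fl *Pvalb*-like neurons. *Mitf* was at 283 and 221 CPM there, with a median class of 62.2 CPM, and the median class of *Tfeb* was 3.02 CPM.

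**Figure D3:**
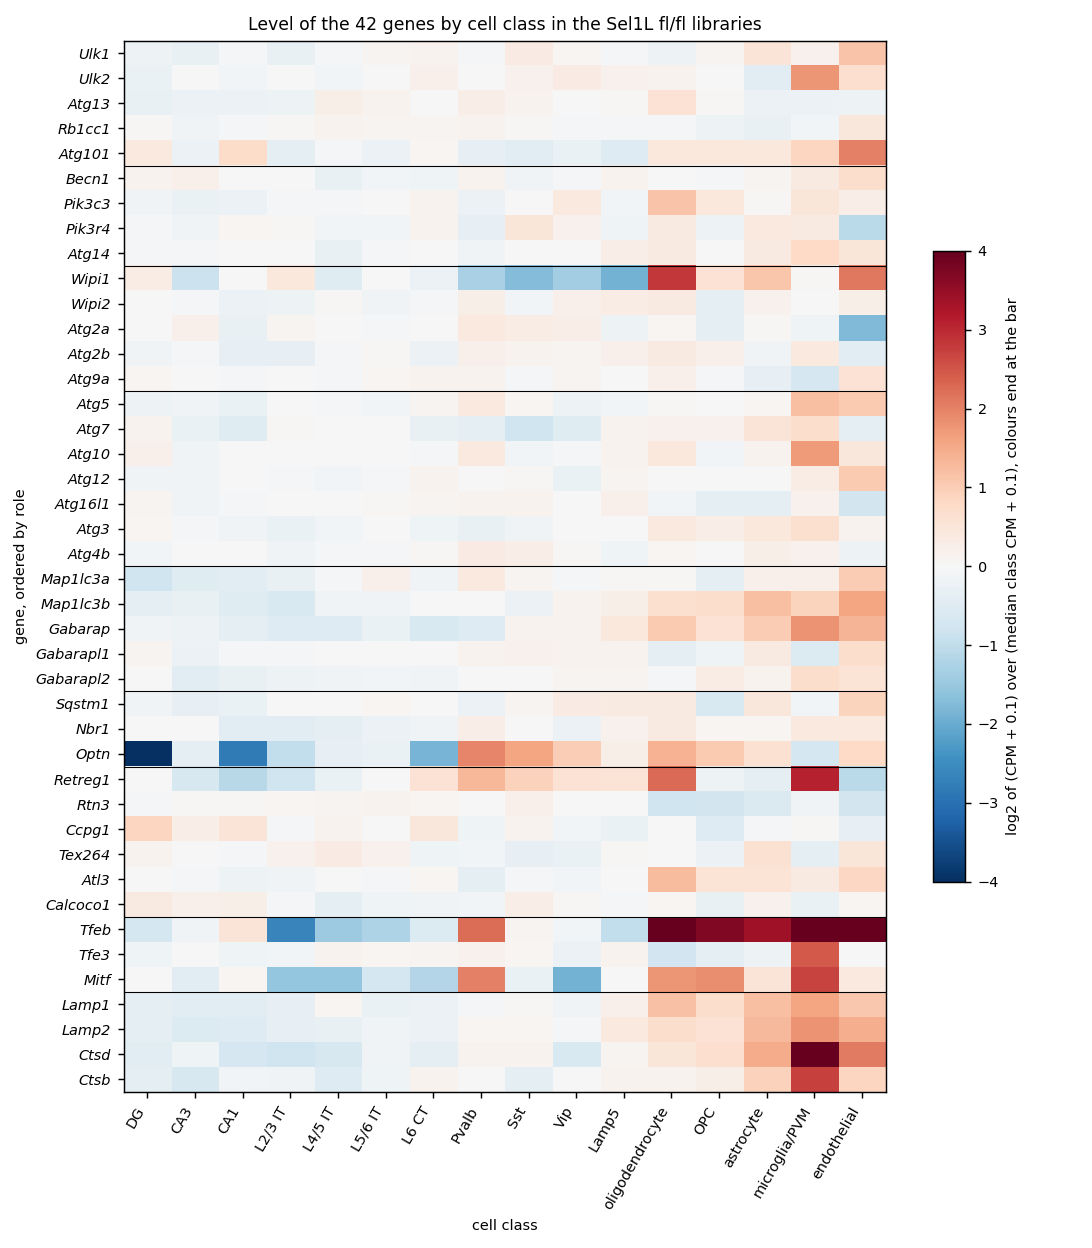
Level of the 42 genes (rows, ordered by role) in 16 cell classes (columns) of the fl/fl libraries, as the log2 ratio (colour) of the mean CPM to the median class, with 0.1 added to both. *Ctsd*, *Retreg1*, *Mitf* and *Ctsb* are darkest in microglia/PVM, *Tfeb* is dark in all 5 classes that are not neurons, and *Optn* is blue in DG (0.719 and 0.454 CPM).

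In the annotation, 14 of the 42 members overlap another counted gene, each on the opposite strand. *Atg13*, *Mitf*, *Tfeb*, *Wipi1* and *Atg12* do not, while *Map1lc3b*, *Gabarapl1* and *Optn* do, and whether the counting used strand is not given in the sources used here.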

How the data were processed

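The authors sorted nuclei from cortex and hippocampus, made 10x Genomics 3′ v3 libraries and, per the labels, processed them with Cell Ranger 6.1.0 on GRCm38. Their deposited matrices hold raw UMI counts for 32286 features, a Cre feature included. Whether introns were counted, and by which strand, is not given in the sources used here. The deposited totals were 74082610 to 122870443 UMIs in a library.

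Nuclei with more than 600 genes and under 5% mitochondrial UMIs were kept, and 426 to 1246 doublets in a library were removed with Scrublet. They were integrated in Seurat 5.3.0 (2000 features, 17 dimensions, resolution 0.2, and 0.4 for neurons), and clusters were named from at least 3 fixed markers. Counts were summed by library and class and tested with edgeR 4.0.16 (quasi-likelihood, TMM, filterByExpr, Benjamini-Hochberg over all genes of a class, threshold 0.05) in R 4.3.3, and interactions took library as a block. DESeq2 1.42.0, other scalings, no filter on low counts, thinned sums, kept doublets, names without integration (scanpy 1.11.5), a replicate block and each library left out were alternatives. The tests were first checked on simulated data. Intervals of fold changes are at 95%, and each library being 1 mouse, p-values rest on 2 mice against 2.

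Members named were those called, and the 5 with the largest fold change among those with at least 20 UMIs in DG, *Sst*, *Pvalb* and all neurons, the 3 with the largest difference in the split of DG and of *Sst*, those at 3 times their median class, and the 3 called genes with the largest fold change of each other list. Other genes named were chosen after their values were seen. The 42 genes and the other lists were chosen with earlier results of these data known. The values of a gene that falls under the rule for named genes are not reported here.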

Additional observations from a re-analysis of the deposited data

Results flagged for a closer look

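The effect of genotype on *Atg13* was larger in DG-like than in CA1-like neurons by 0.74 on the log2 scale, by a test of the difference itself across all genes (adjusted p = 0.0067 by edgeR). For *Mitf* the signed fold change was higher in *Sst*-like than in CA1-like neurons by 0.87 (adjusted p = 0.0138 by edgeR). *Mitf* was higher in SynCre libraries of *Sst*-like but not of CA1-like neurons, so 0.87 is not a difference in size of effect. The Cre feature, which no comparison used, had 409 UMIs in fl/fl replicate 1 as labelled, more than the 236 and 221 UMIs of the SynCre libraries, and 0 in the other fl/fl library. Groups of 2 libraries were too small for a search for outlying samples.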

How the results depend on the processing

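The 3 calls of a member in neuron types became 1 with DESeq2's Wald test (*Atg13* in DG), 6 with the replicate number as a block and 1 to 4 with a library left out. The 1 call without fl/fl replicate 1 was *Wipi1* in L2/3 IT (-0.75, adjusted p = 0.0335 by edgeR). With thinned sums the calls were again 3, but in *Mitf*, *Wipi1* and *Tfe3* in *Sst*. The 2 calls in other classes became 0 with DESeq2's test, thinned sums, doublets kept, names without integration and, chosen after seeing the data, OPC-like nuclei without immature ones, and 0 to 2 with a library left out. The 2 interactions became 0 with DESeq2's test, 0 with *Vip* as reference and 0 to 4 with a library left out. In the split, thinning to 2000 UMIs gave 1 call in place of 0, *Atg13* in L4/5 IT (1.07, adjusted p = 0.0348 by edgeR). The calls of other pathway genes fell to 16 with DESeq2's test, and 12 in place of 14 members reached 3 times the median class with doublets kept. The causes were not tested. In all neurons 0 members were called under each alternative.

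Values that turned among genes named by the rule were those in OPC of *Tfeb* (0.52 with names without integration, 0.50 without immature nuclei) and *Mitf* (0.26 and 0.25), of *Atg101* in *Pvalb* (-0.13 to 1.07 with a library left out, -0.06 without SynCre replicate 2), of *Wipi1* in *Pvalb* (-0.38 with thinned sums) and of *Ctsd* in DG (0.14 in marker-positive nuclei), and outside it *Map1lc3a* in all neurons (-0.09 to 0.20 with a library left out). Of 267 values of genes named by the rule, 225 kept direction and side of the threshold, 26 fell below it, 8 passed it and 8 turned. Only a value called at first could fall below the threshold. These were the 3 calls in neuron types, the 2 in other classes and the 2 interactions. The 225 include values called neither at first nor under the alternative. Their number does not measure how stable the calls were. The replicate block added *Mitf* and *Gabarap* in L6 CT and *Atg13* in *Pvalb* to the 3 calls in neuron types and left 2 in other classes. Replicates of the same number shared that number and, by *Xist* and *Ddx3y*, sex, with a correlation of deviations of -0.123 to 0.087 over classes. The crossed pairing in endothelial-like cells, added after seeing the data, called 8 genes, none a member. The block on replicate number called 5 there and the fit with no block 0. The borders of the neuron clusters also moved slightly with the rounding of the linear algebra library, which was held fixed, so p-values near the threshold, such as that of *Atg13* in *Sst* against CA1, are not firm on either side of it. A split at 2 or more marker UMIs gave no value, since no neuron type had 50 nuclei on each side in each library. Depth limits *Tfeb* in most neuron types, *Wipi1* in *Sst* (57 UMIs) and the split.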
